A study of Mus musculus with 7 samples.

Results

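Adventitial fibroblasts are the connective tissue cells that sheathe the airways and larger vessels of the lung. In single-cell profiles of mouse lung they were taken as cells with at least 5 unique molecular identifiers (UMIs, counted RNA molecules) of Dcn, Serpinf1 and Clec3b together and at least 2 of Col14a1, Pi16, Dpt and Mfap5. At most 1 UMI of Npnt, Itga8 and Tcf21, at most 1 of Cdh5 and Pecam1, and none of Ptprc was allowed. The rule found 299 cells among the 50955 that passed the cell filter, or 0.587%. The cells were thus selected on the measured UMIs of these 13 genes, whose levels are given below as a description and not as a result.

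Smad4iko mice carried floxed Smad4 alleles on both chromosomes and creERT2, a Cre recombinase that acts once tamoxifen is given, at the Rosa26 locus. Their Smad4fl/fl littermates had the floxed alleles but no Cre. Tamoxifen was injected into the peritoneum of both genotypes, 5 times at 75 mg/kg, from postnatal day 21 to day 26. At 8 weeks of age the lung beyond the hilum was taken and digested. There were 4 Smad4iko and 3 Smad4fl/fl mice, each with 1 droplet-based 3′ library. Rosa26 is active in nearly every cell, so any difference in fibroblasts can start in the fibroblasts or in other cells, and an effect of creERT2 itself cannot be told apart from loss of Smad4, since no Cre-bearing animal had intact Smad4.

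SMAD4 is the shared partner of the receptor-activated SMADs and relays TGF-beta and BMP signalling into the nucleus. TGF-beta drives fibroblasts to make collagen, elastic fibres and contractile proteins. Mouse adventitial fibroblasts are also known as a niche for group 2 innate lymphoid cells, which they reach through the cytokines IL-33 and TSLP, and as a store of Pi16-positive cells found in many organs.

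The libraries held 46449235 to 66557262 UMIs and 6528 to 8413 cells that passed the filter. The adventitial fibroblasts gave 522780, 369624, 101903 and 176003 UMIs in Smad4iko 1 to 4, against 591089, 125915 and 268020 UMIs in Smad4fl/fl 1 to 3. The median per member was between 5047.5 and 8543.5 UMIs. In a principal component analysis of the summed fibroblast counts, Smad4iko 3 and 4 lay apart at 23.5 and 27.3 on the leading axis, which held 37.0% of the variance, with Smad4fl/fl 2 at 11.2 and the other 4 libraries below 0. Smad4iko 3, Smad4iko 4 and Smad4fl/fl 2 were also the libraries with the fewest fibroblast UMIs, and the part of depth in this axis was not tested. Leaving out Smad4iko 3 and 4, as done below, thus also leaves out shallow libraries. By Xist and Ddx3y, Smad4iko 3 and Smad4fl/fl 3 were female. No member was marked as a doublet by Scrublet, no barcode was a member in more than 1 library, and 10 to 23 barcodes were shared by any 2 libraries among all cells kept.

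The label was checked against markers of other cells, with levels as CPM, the counts of a gene scaled to all UMIs of the fibroblasts in that library. Of 5 mesothelial markers, Msln, Upk3b, Wt1 and Lrrn4 had no UMI. The 5 endothelial markers summed to 11.4 to 39.3 CPM in Smad4iko and 7.46 to 35.5 CPM in Smad4fl/fl fibroblasts, against 9685 CPM in endothelial cells of all libraries pooled. Cdh5 and Pecam1 in that sum were capped by the rule. Epithelial markers summed to 56.8 to 157 CPM in Smad4iko and 70.9 to 421 CPM in Smad4fl/fl fibroblasts, against 139482 CPM in pooled epithelial cells. Pericyte markers summed to 125 to 157 CPM in Smad4iko and 143 to 190 CPM in Smad4fl/fl fibroblasts. Smooth muscle markers summed to 402 to 792 CPM in Smad4iko and 246 to 876 CPM in Smad4fl/fl fibroblasts. Of 8 markers of alveolar fibroblasts, Fgfr4 was at 0 and Wnt2 was under 10 CPM over all members. Ces1d was at 26.4 CPM, Limch1 at 51.5 CPM and Inmt at 1610 CPM. In alveolar fibroblasts of all libraries pooled these were at 535, 886 and 4176 CPM. Npnt, Itga8 and Tcf21, at 6.96, 5.57 and 43.6 CPM, were capped by the rule and are no check of the label. The 5 markers of peribronchial fibroblasts were all present, and Hhip alone reached 1632 CPM, so that the rule took in cells with a peribronchial signature next to the adventitial ones. Hedgehog-interacting protein, the product of Hhip, binds and restrains Hedgehog ligands.

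No difference in the frequency of adventitial fibroblasts between Smad4iko and Smad4fl/fl lungs was detectable against a wide spread between mice. They made up 0.996%, 0.712%, 0.190% and 0.323% of kept cells in Smad4iko 1 to 4, from 65, 48, 16 and 22 cells. In Smad4fl/fl 1 to 3 they made up 1.08%, 0.264% and 0.583%, from 87, 19 and 42 cells. The shares overlapped, and each genotype had libraries at both ends of the range. The mean was 0.555% ± 0.368 (SD, n = 4) in Smad4iko and 0.642% ± 0.410 (SD, n = 3) in Smad4fl/fl lungs. The difference of -0.0867 percentage points was smaller than the spread between mice (exact permutation test, two-sided, p = 0.8, where 4 against 3 mice allow no p below 0.0286). Its sign turned without Smad4fl/fl 1, which gave 0.131 (exact permutation p = 0.667), and without Smad4iko 3, which gave 0.0349 (exact permutation p = 0.9). How many cells a digest releases and how many the lung holds cannot be told apart.

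**Figure D1:**
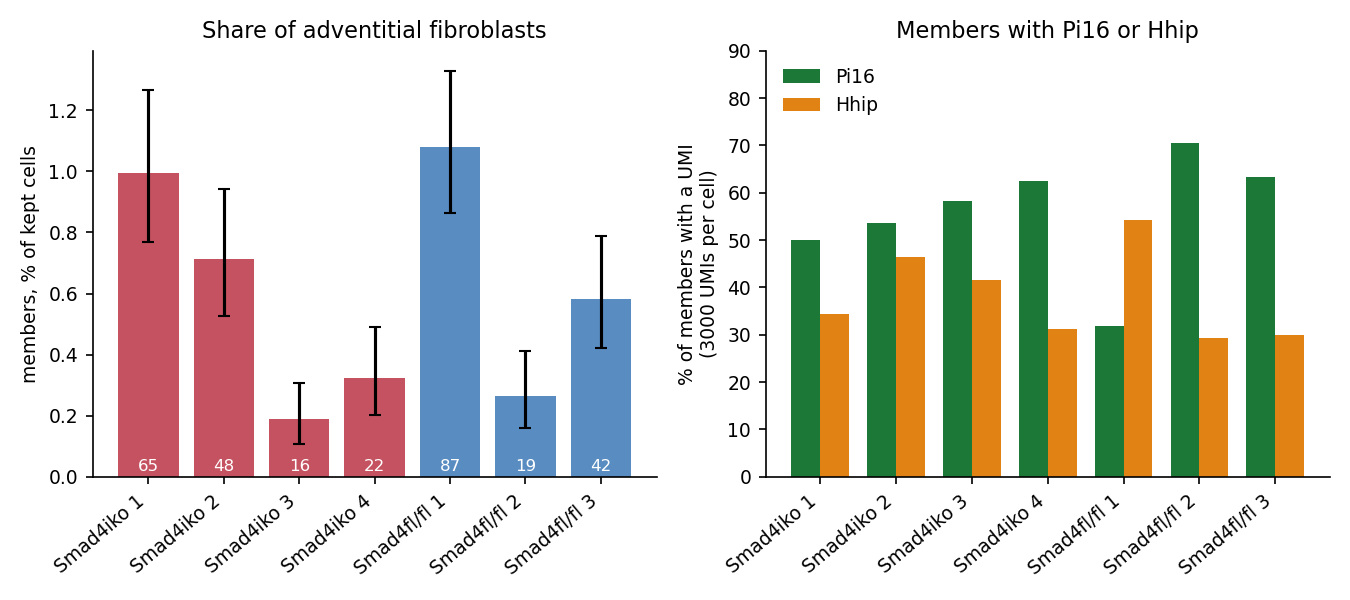
Left, adventitial fibroblasts as a percentage of kept cells in each library, with exact 95% binomial intervals that cover counting error only and the number of members in white. Right, the percentage of members with a UMI of Pi16 or Hhip after each cell was thinned to 3000 UMIs. Smad4iko libraries are red and stand left of the Smad4fl/fl libraries in blue in the bar plot, and both genotypes span most of the range.

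The rule genes were present as chosen. Dcn, which encodes the small proteoglycan decorin, was found in 99.7% of the members with a median of 59 UMIs, and Dpt and Mfap5 in 89.6% and 89.3%. Clec3b was found in 71.6%, Serpinf1 in 66.6% and Pi16 in 54.8%. At the edge of the rule, 15 members had exactly 5 UMIs of the first gene group or exactly 2 of the second, and 23 cells missed the rule by 1 UMI. Col14a1, a collagen of fibril surfaces, had 1190, 1199, 1266 and 1165 CPM in Smad4iko 1 to 4, against 809, 1160 and 1067 CPM in Smad4fl/fl 1 to 3. Pi16, which encodes peptidase inhibitor 16, had 1006, 1169, 1344 and 1466 CPM in Smad4iko 1 to 4, against 721, 1572 and 735 CPM in Smad4fl/fl 1 to 3. Dcn averaged 12027 ± 2253 CPM (SD, n = 4) in Smad4iko and 12907 ± 3376 CPM (SD, n = 3) in Smad4fl/fl fibroblasts.

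Pi16 and Hhip marked largely different members. Of all 299, 164 had a Pi16 UMI, 114 had at least 2 Hhip UMIs, 33 had both and 54 had neither. To compare cells of unequal depth, each was thinned to 3000 UMIs, which left out 53 shallower members and kept 246. Of these 122, or 49.6%, had a Pi16 UMI, against 5.49% of leukocytes and 0.738% of endothelial cells thinned to the same depth. Pi16 belongs to the rule and these cells define the split, so the contrasts that follow describe the cells and carry no test.

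Members with a Pi16 UMI more often had UMIs of Ly6a, which encodes the stem cell antigen Sca-1, found in 77.9% of them and 18.5% of members without Pi16. Cd34, another surface marker of stromal progenitors, was found in 83.6% and 25.8%, and Scara5, a ferritin receptor, in 67.2% and 15.3%. The dipeptidase gene Dpep1 was found in 73.0% and 15.3%, and the globin Cygb in 91.0% and 33.9%. All 5 genes leaned the same way in 7 of 7 libraries. Inmt, counted above as an alveolar fibroblast marker, was found in 92.6% of members with Pi16 and 34.7% of those without. Il33 followed this side too, found in 41.8% of members with Pi16 and 7.26% of those without, as did the complement genes C1ra with 73.0% and 32.3% and C3 with 79.5% and 39.5%. In thinned leukocytes Cd34 was found in 1.26%, Scara5 in 0.130% and Il33 in 0.130%, while Ly6a was found in 11.0%. In thinned endothelial cells Ly6a was found in 95.2% and Cd34 in 50.5%, so neither is particular to these fibroblasts. Scara5 was found there in 0.277% and Il33 in 0.707%.

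Other genes were found more often in members without Pi16. Enpp2, which encodes autotaxin, the enzyme that makes lysophosphatidic acid, was found in 0.820% of members with Pi16 and 65.3% of members without. Hhip was found in 16.4% and 66.1%, Tagln, a smooth muscle actin-binding protein, in 2.46% and 53.2%, and Wif1, a secreted Wnt inhibitor, in 0.820% and 44.4%. Bmp5, a BMP ligand, was found in 11.5% and 41.1%. Myh11, the myosin of smooth muscle, was found in 0.820% and 21.8%, a minority of the cells without Pi16. Thbs1, which encodes thrombospondin 1, an activator of latent TGF-beta, was found in 27.0% and 72.6% and leaned the same way in 6 of 7 libraries. In thinned leukocytes Tagln was found in 1.17% and Myh11 in 0.155%.

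**Figure D2:**
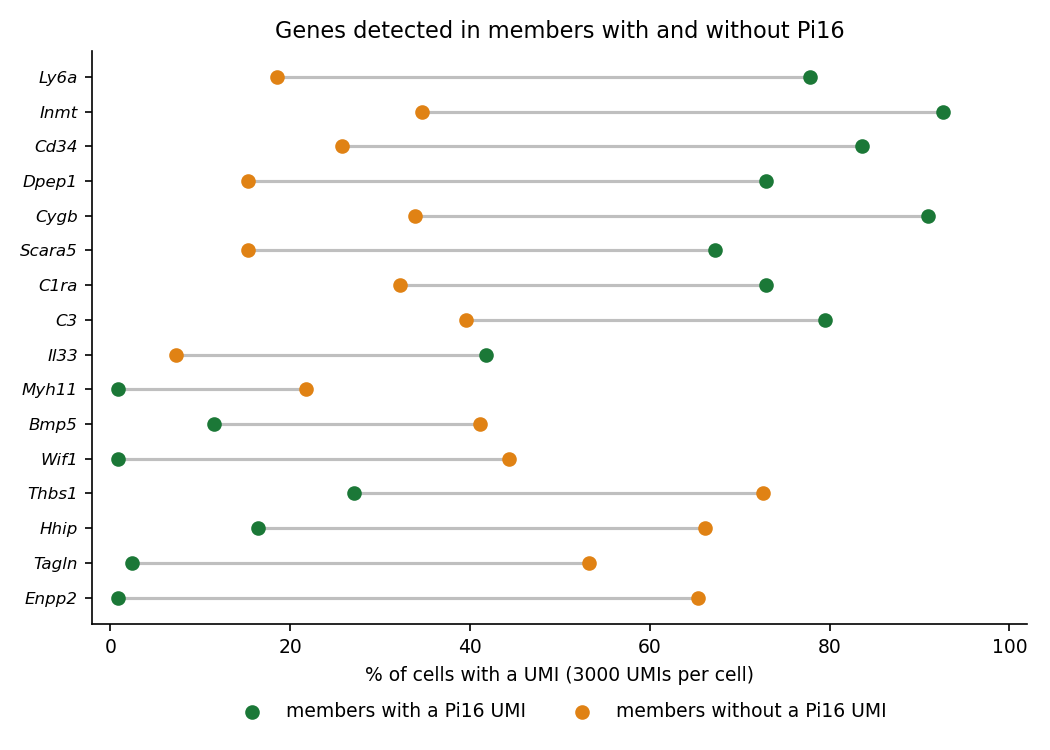
Percentage of cells with a UMI, after thinning to 3000 UMIs per cell, in 122 members with a Pi16 UMI (green) and 124 without (orange), for genes picked from those that differ most and from the gene lists. Ly6a, Inmt and Cd34 head the green side, and Enpp2 lies at 65.3% in cells without Pi16.

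The balance of Pi16 and Hhip cells varied between mice of one genotype. Among thinned members Hhip was found in 34.5%, 46.3%, 41.7% and 31.3% in Smad4iko 1 to 4, against 54.2%, 29.4% and 30% in Smad4fl/fl 1 to 3. Pi16 was found in 50.0%, 53.7%, 58.3% and 62.5% in Smad4iko, against 31.9%, 70.6% and 63.3% in Smad4fl/fl members. Smad4fl/fl 1 held the most Hhip and the least Pi16 of all libraries, and the genotypes overlapped in both genes. Hhip averaged 38.4% ± 6.84 (SD, n = 4) in Smad4iko and 37.9% ± 14.1 (SD, n = 3) in Smad4fl/fl mice, a difference inside that spread (two-sided exact permutation test, p = 0.971). Pi16 averaged 56.1% ± 5.45 (SD, n = 4) in Smad4iko and 55.3% ± 20.5 (SD, n = 3) in Smad4fl/fl mice (two-sided exact permutation test, p = 0.914). Smad4fl/fl 1 is the library with the most members.

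Smad4 itself was lower in every Smad4iko library than in any Smad4fl/fl library and was still detected. It had 40.2, 51.4, 68.7 and 68.2 CPM in Smad4iko 1 to 4, against 72.7, 143 and 97.0 CPM in Smad4fl/fl 1 to 3. The genotypes did not overlap, although Smad4iko 3 lay close to Smad4fl/fl 1. The mean was 57.1 ± 13.9 CPM (SD, n = 4) in Smad4iko and 104 ± 35.7 CPM (SD, n = 3) in Smad4fl/fl fibroblasts, from 59 UMIs in Smad4iko and 87 in Smad4fl/fl cells. The log2 difference was -0.85 ± 0.31 (SE) with an unadjusted p of 0.0171, but it did not pass after Benjamini-Hochberg adjustment over all genes (edgeR quasi-likelihood test, adjusted p = 1.00). It lay between -1.08 and -0.66 in the 19 alternatives in which Smad4 was tested. Among members with 0 or 1 Hhip UMIs the genotypes did overlap, with 88.1 CPM in Smad4iko 3 and 79.3 CPM in Smad4fl/fl 1. Smad4 lies at chr18:73639009-73703780 on the minus strand (mm10), and a 3′ tag need not come from the deleted part, which the labels do not name, so RNA that is left says nothing of the protein.

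No gene passed the adjusted threshold of 0.05 among 3987 tested in the fibroblasts (0%). At an unadjusted p under 0.05 there were 113 genes (2.83%), 54 of them higher (1.35%) and 59 lower (1.48%) in Smad4iko, and 158 genes (3.96%) had genotypes that did not overlap, 77 of them higher (1.93%) and 81 lower (2.03%). DESeq2 on the same genes called 2 (0.0502%), C1rb and Hbegf, both lower in Smad4iko, with 48 genes at an unadjusted p under 0.05. The single genes below were taken by p from those with no overlap, so they are the most extreme of many and are given with their values, without a claim that they changed.

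**Figure D3:**
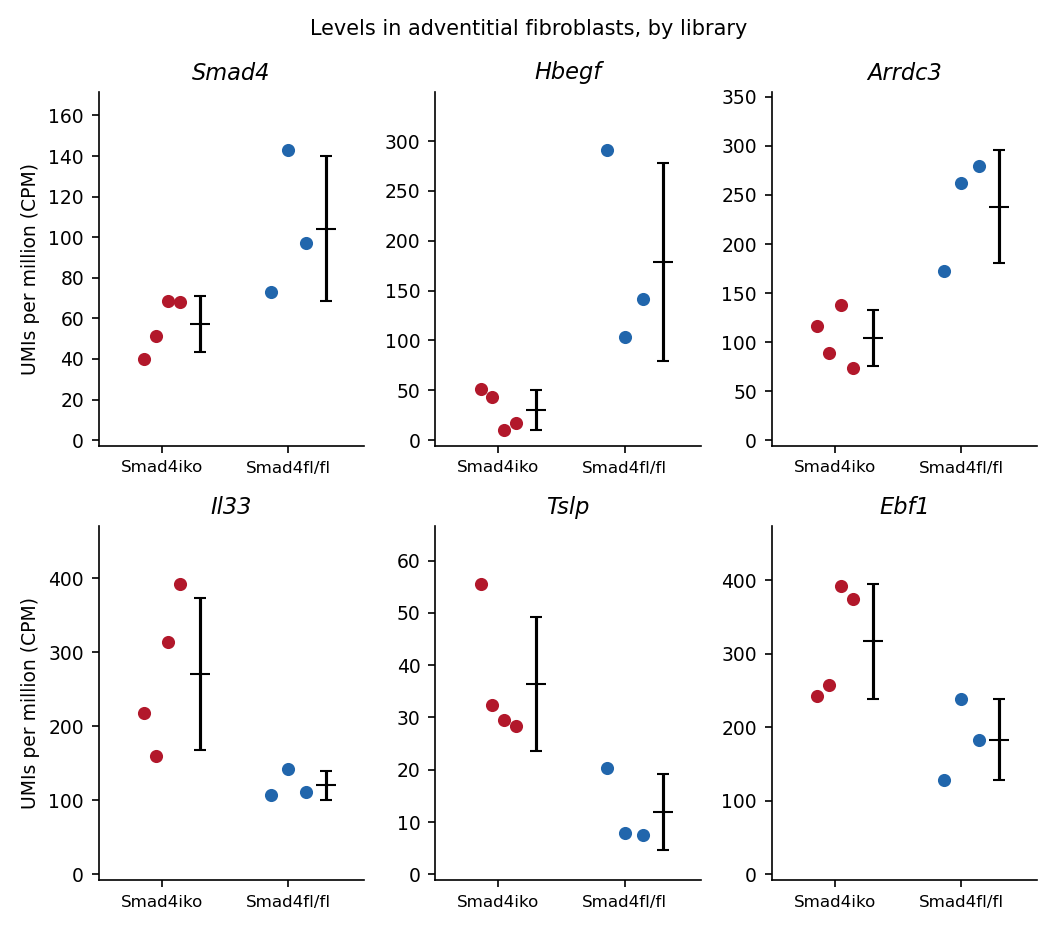
CPM of Smad4, Hbegf, Arrdc3, Il33, Tslp and Ebf1 in the adventitial fibroblasts, with 1 point per library (4 Smad4iko on the left, 3 Smad4fl/fl on the right) and the mean with SD as a black bar. All 6 genes show no overlap between genotypes, Smad4, Hbegf and Arrdc3 with lower and Il33, Tslp and Ebf1 with higher values in Smad4iko, and none passed adjustment with edgeR, Tslp being too sparse to test.

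Il33, the alarmin that activates group 2 innate lymphoid cells, had 218, 160, 314 and 392 CPM in Smad4iko 1 to 4, against 107, 143 and 112 CPM in Smad4fl/fl 1 to 3. Every Smad4iko library lay above every Smad4fl/fl library, by the least margin in Smad4iko 2. The means were 271 ± 103 CPM (SD, n = 4) in Smad4iko and 120 ± 19.6 CPM (SD, n = 3) in Smad4fl/fl fibroblasts. The log2 difference was 1.16 ± 0.32 (SE) with an unadjusted p of 0.00336, and the edgeR adjusted p was 1.00. It was 0.75 without Smad4iko 3 and 4 and 1.10 in members with a Pi16 UMI.

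Tslp, the second cytokine of that axis, was too sparse to test. It had 55.5, 32.5, 29.4 and 28.4 CPM in Smad4iko 1 to 4, against 20.3, 7.94 and 7.46 CPM in Smad4fl/fl 1 to 3, from 49 UMIs in Smad4iko and 15 in Smad4fl/fl cells. The genotypes did not overlap in Tslp either, but with so few UMIs per library the separation is open to counting error. Of 12 genes of the lymphoid niche list 7 were tested, and Il33 was the one with no overlap among them, against 3.96% of all genes tested. Cxcl12, a chemokine that holds lymphocytes and progenitors near stroma, averaged 678 CPM in Smad4iko and 477 CPM in Smad4fl/fl fibroblasts with overlap (log2 difference 0.54 ± 0.30). The eotaxin Ccl11, which attracts eosinophils, had a log2 difference of 0.04 ± 0.33. Il6 had 1280, 495, 19.6 and 34.1 CPM in Smad4iko 1 to 4, against 804, 318 and 1063 CPM in Smad4fl/fl 1 to 3, lowest in Smad4iko 3 and 4.

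Other genes higher in Smad4iko without overlap were spread over many functions. Ebf1, a transcription factor of fibroblast and B cell identity, had 243, 257, 393 and 375 CPM in Smad4iko 1 to 4, against 129, 238 and 183 CPM in Smad4fl/fl 1 to 3 (log2 difference 0.81 ± 0.27). It was 0.57 without Smad4iko 3 and 4. Among members with 0 or 1 Hhip UMIs Ebf1 overlapped, with 269 CPM in Smad4iko 1 and 361 CPM in Smad4fl/fl 2. The glutamate transporter Slc1a3 differed by 0.94 ± 0.31, the isocitrate dehydrogenase Idh1 by 1.10 ± 0.38 and the pyruvate dehydrogenase subunit Pdhb by 0.90 ± 0.33 on the log2 scale. Rpl41, Snrpf, U2af2, Bola2, Sh3kbp1 and Arf6 were taken by the same rule, with log2 differences of 0.60 to 1.01.

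Hbegf, the gene with the smallest p in the test, encodes a membrane-bound EGF receptor ligand that can be shed. It had 51.6, 43.3, 9.81 and 17.0 CPM in Smad4iko 1 to 4, against 291, 103 and 142 CPM in Smad4fl/fl 1 to 3. Every Smad4iko library lay below every Smad4fl/fl library, and Smad4iko 3 and 4 were lowest. The log2 difference was -2.34 ± 0.48 (SE) with an unadjusted p of 0.000494, an adjusted p of 1.00 in edgeR and an adjusted p of 0.0309 in DESeq2. It was -1.95 without Smad4iko 3 and 4 and -1.69 without Smad4fl/fl 1. Hbegf was at 106 CPM in endothelial cells of all libraries pooled, and its genotype difference there was -0.21 ± 0.50. The fibroblast difference minus the endothelial difference was -2.10 (limma, adjusted p = 0.0695).

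Arrdc3, an arrestin-like adaptor that guides receptors to degradation, had 117, 89.3, 137 and 73.9 CPM in Smad4iko 1 to 4, against 173, 262 and 280 CPM in Smad4fl/fl 1 to 3. It was lower in each Smad4iko library, with a log2 difference of -1.17 ± 0.27. The unadjusted p was 0.00101 and the adjusted p was 1.00 (edgeR). Arrdc3 was at 250 CPM in members with at least 2 Hhip UMIs and 97.5 CPM in those with 0 or 1, all libraries pooled. Among members with 0 or 1 Hhip UMIs the genotypes overlapped in Arrdc3, with 117 CPM in Smad4iko 3 and 95.2 CPM in Smad4fl/fl 1. Ccnd3, the cyclin D3 gene, averaged 53.9 ± 13.3 CPM (SD, n = 4) in Smad4iko and 112 ± 27.2 CPM (SD, n = 3) in Smad4fl/fl fibroblasts. The plakin Ppl averaged 37.1 ± 11.5 CPM (SD, n = 4) in Smad4iko and 78.3 ± 6.92 CPM (SD, n = 3) in Smad4fl/fl fibroblasts. Tmem132c, Dlst, Fcho2, Sun1, Phldb2, Golga7 and Srrt had log2 differences of -1.15 to -0.73. Of the 24 genes taken by the rule, none reversed its sign in the 435 values that the alternatives gave. They had been picked for no overlap in these same data, which makes a reversal unlikely, so the kept signs are no independent support. A gene below the filter of an alternative gave no value there.

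C1rb and C1s2, complement protease genes on chromosome 6, had no UMI in the fibroblasts of any Smad4iko library and were present in those of every Smad4fl/fl library. C1r and C1s are the serine proteases of the first complement complex, and the mouse has 2 genes for each, C1ra, C1rb, C1s1 and C1s2, in 1 cluster. C1rb, at chr6:124570294-124581171 on the plus strand (mm10), had 0 UMIs in each of Smad4iko 1 to 4, against 28, 17 and 58 UMIs in Smad4fl/fl 1 to 3. C1s2, at chr6:124624625-124636085 on the minus strand, had 0 UMIs in each Smad4iko library as well, against 3, 11 and 22 UMIs in Smad4fl/fl libraries. Set against a floor of 3 counts over the Smad4iko group, C1rb was at least 40.8-fold lower and C1s2 at least 14.3-fold lower in Smad4iko fibroblasts. C1rb did not pass with edgeR over the tested genes (adjusted p = 1.00, from an unadjusted p of 0.000824) but passed with DESeq2 (adjusted p = 6.57e-07), with edgeR without Smad4fl/fl 1 (adjusted p = 0.00533) and in members with 0 or 1 Hhip UMIs (adjusted p = 0.0379). C1s2 was below the filter on low counts.

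The neighbours C1ra and C1s1 were detected in all 7 libraries, C1ra at chr6:124512405-124523443 on the plus strand and C1s1 at chr6:124530345-124542359 on the minus strand. C1ra had 501, 457, 481 and 574 CPM in Smad4iko 1 to 4, against 337, 214 and 410 CPM in Smad4fl/fl 1 to 3. The genotypes did not overlap, with every Smad4iko library higher. The log2 difference was 0.63 ± 0.27 with an unadjusted p of 0.0356, and the edgeR adjusted p was 1.00. C1s1 averaged 669 ± 171 CPM (SD, n = 4) in Smad4iko and 457 ± 56.8 CPM (SD, n = 3) in Smad4fl/fl fibroblasts with overlap (log2 difference 0.58 ± 0.25). In members with a Pi16 UMI the log2 differences were 0.31 for C1ra and 0.32 for C1s1, smaller than among all members. Among members with 0 or 1 Hhip UMIs C1ra overlapped, with 466 CPM in Smad4iko 2 and 530 CPM in Smad4fl/fl 1.

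**Figure D4:**
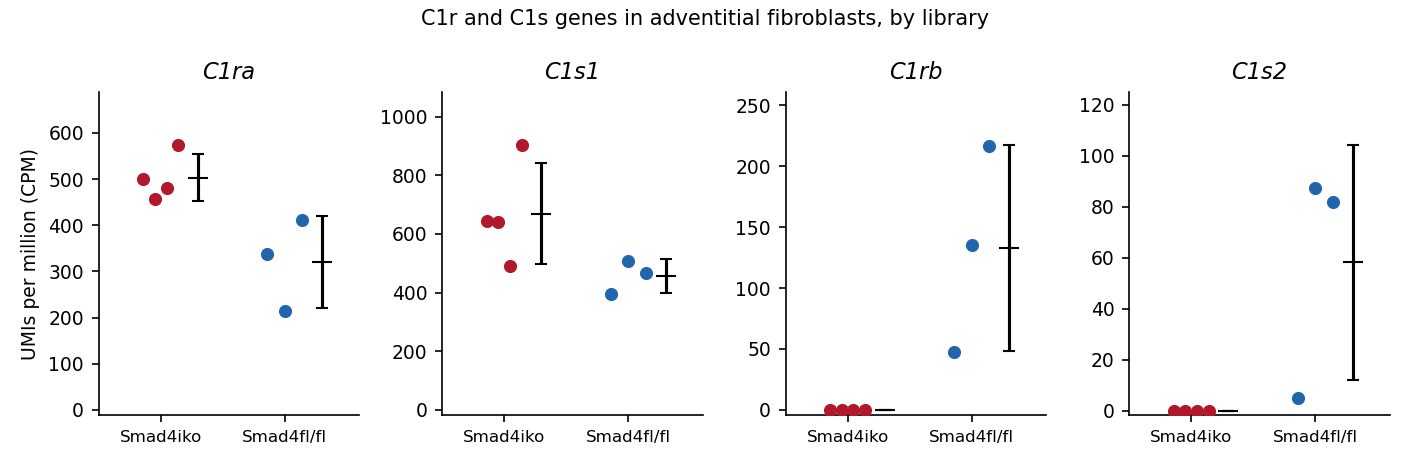
CPM of C1ra, C1s1, C1rb and C1s2 in the adventitial fibroblasts, 1 point per library (Smad4iko left, Smad4fl/fl right) with the mean and SD as a black bar. C1rb and C1s2 are at 0 in all 4 Smad4iko libraries, while C1ra and C1s1 are not.

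C1rb was at 0 in Smad4iko cells of the other types as well. Over all kept cells it had 0 UMIs in the 4 Smad4iko libraries and 1054 in the 3 Smad4fl/fl libraries, and C1s2 had 1 in Smad4iko and 312 in Smad4fl/fl libraries. When all 14842 genes with at least 1 UMI were tested, edgeR called 16, with C1rb, C1s2, Pianp and Hbegf among them. Pianp, a gene of a membrane protein farther along the chromosome at chr6:124996694-125003096, had 2 UMIs in Smad4iko and 48 in Smad4fl/fl fibroblasts, and 94 in Smad4iko and 3542 in Smad4fl/fl libraries over all kept cells. Rosa26, where creERT2 sits, lies at chr6:113067428-113077333. Within 25 Mb of it 7 of 79 tested genes (8.86%) had an unadjusted p under 0.05, among them C1rb, C1ra and C1s1, against 106 of 3908 genes elsewhere (2.71%), and 7 genes near it (8.86%) and 151 elsewhere (3.86%) had no overlap. Loss of Smad4 and the creERT2 allele with the chromosome around it cannot be told apart in this design.

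The copies are alike in part. Whether 3′ tags at the read length of 150 bp can be shared between them was not tested, so how certain the counts of each copy are is not known. The annotated transcripts of C1ra and C1rb were 79.8% identical, and 54.3% of the 31-base words in their last 500 bases were shared. For C1s1 and C1s2 these values were 86.6% and 33.4%. The bases just before the annotated starts are shown because they bear on whether the copies also share their upstream sequence. They are RefSeq promoter sequences on GRCm38.p6, cut where the annotated gene begins and written 5′ to 3′ on the strand of the gene, for C1rb at chr6:124570180-124570293, for C1s1 at chr6:124542360-124542609 and for C1s2 at chr6:124636086-124636335. Capitals mark the C1rb bases that differ from C1ra within the aligned bases 1 to 111. The bases after that lie outside the alignment and are unmarked.
C1rb: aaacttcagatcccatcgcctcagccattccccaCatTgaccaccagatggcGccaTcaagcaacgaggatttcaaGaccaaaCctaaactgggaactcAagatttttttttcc
C1s1: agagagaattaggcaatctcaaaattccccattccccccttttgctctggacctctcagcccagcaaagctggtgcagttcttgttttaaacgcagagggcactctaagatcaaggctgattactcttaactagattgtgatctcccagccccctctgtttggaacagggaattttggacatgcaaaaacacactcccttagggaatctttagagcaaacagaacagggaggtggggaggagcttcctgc
C1s2: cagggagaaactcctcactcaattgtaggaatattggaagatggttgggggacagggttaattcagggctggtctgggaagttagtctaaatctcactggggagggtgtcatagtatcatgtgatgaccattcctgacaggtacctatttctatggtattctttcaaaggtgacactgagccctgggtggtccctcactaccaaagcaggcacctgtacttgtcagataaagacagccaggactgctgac
The C1rb stretch aligned to the C1ra promoter window, which lies mostly inside the annotated gene and is not printed, over 111 bases with 7 differences, an identity of 93.7%. The best local match of the C1s2 stretch to that of C1s1 covered 39 aligned positions with an identity of 69.2%.

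Gene lists of the TGF-beta and BMP pathways held no gene that passed adjustment, and their medians are read beside 0.0021, the median log2 difference of all genes tested. Among Smads 5 of 8 were tested. Smad1, which carries BMP signals, averaged 99.3 CPM in Smad4iko and 61.2 CPM in Smad4fl/fl fibroblasts without overlap (log2 difference 0.54 ± 0.34). The inhibitory Smad7 averaged 155 CPM in Smad4iko and 178 CPM in Smad4fl/fl fibroblasts with overlap. Receptors were close to even, with 4 of 8 tested genes positive and a median of -0.018, and 6 of 9 positive without Smad4iko 3 and 4. Tgfbr2, the receptor that binds TGF-beta first, had a log2 difference of -0.05 ± 0.28.

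Of ligands and the proteins that store and release them, 10 of 12 tested genes were negative, with a median of -0.36. Ltbp3, which tethers latent TGF-beta, averaged 152 CPM in Smad4iko and 208 CPM in Smad4fl/fl fibroblasts without overlap (log2 difference -0.40 ± 0.23). Tgfb3, a TGF-beta ligand, differed by -0.45 ± 0.33. Thbs1 had 2163, 2527, 1403 and 136 CPM in Smad4iko 1 to 4, against 6532, 524 and 780 CPM in Smad4fl/fl 1 to 3, highest in the library with the most Hhip-positive cells, and its log2 difference was -0.79 with that library and 1.29 without it. Without Smad4iko 3 and 4 the list median was -0.12, and in members with a Pi16 UMI -0.14. Without Smad4fl/fl 1 it was -0.26, with 8 of 12 negative.

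No target gene passed either. Of 27 tested TGF-beta targets 18 were positive with a median of 0.13, and no gene of the list was without overlap. Over all genes tested 3.96% were without overlap, so none in so short a list is no result about the targets. Col1a1, the main chain of collagen I, had 3281, 2151, 2630 and 7812 CPM in Smad4iko 1 to 4, against 2763, 4725 and 1627 CPM in Smad4fl/fl 1 to 3. Smad4iko 4 was highest in Col1a1 and the genotypes overlapped (log2 difference 0.41 ± 0.51). Of 7 tested BMP targets 6 were negative with a median of -0.32, but 3 of 6 without Smad4fl/fl 1, and 6 of 7 with a median of -0.098 without Smad4iko 3 and 4. Bambi, a decoy receptor induced by BMP and TGF-beta, had 82.3, 103, 29.4 and 34.1 CPM in Smad4iko 1 to 4, against 107, 206 and 108 CPM in Smad4fl/fl 1 to 3, without overlap. The log2 difference was -0.88 ± 0.40 with an unadjusted p of 0.0489 (edgeR adjusted p = 1.00). It was -0.45 without Smad4iko 3 and 4. Among members with 0 or 1 Hhip UMIs Bambi overlapped, with 122 CPM in Smad4iko 2 and 60.2 CPM in Smad4fl/fl 2.

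No matrix gene passed adjustment. Collagens split 7 positive and 7 negative with a median of 0.041, and none was without overlap, against 3.96% of all genes tested. The split depended on the libraries, with 4 of 14 positive and a median of -0.16 without Smad4iko 3 and 4, and 9 of 14 positive and a median of 0.26 without Smad4fl/fl 1. Elastic fibre genes had 10 of 16 positive, 8 of 16 without Smad4iko 3 and 4 and 7 of 16 without Smad4fl/fl 1. Fbn1, the fibrillin 1 gene, averaged 437 ± 243 CPM (SD, n = 4) in Smad4iko and 211 ± 34.3 CPM (SD, n = 3) in Smad4fl/fl fibroblasts, with overlap and 785 CPM in Smad4iko 3. Its log2 difference was 1.01 ± 0.35, and 0.47 without Smad4iko 3 and 4. Among 20 proteinases and inhibitors 11 were positive, 6 without Smad4iko 3 and 4 and 10 without Smad4fl/fl 1. Mmp3, which encodes stromelysin 1, averaged 886 ± 463 CPM (SD, n = 4) in Smad4iko and 406 ± 153 CPM (SD, n = 3) in Smad4fl/fl fibroblasts with overlap. Its log2 difference was 1.12 ± 0.41, and 0.67 without Smad4iko 3 and 4. Contractile genes had 6 of 11 positive, 10 of 13 without Smad4iko 3 and 4 and 10 of 12 without Smad4fl/fl 1, and Acta2 overlapped with a log2 difference of 0.77 ± 0.44.

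**Figure D5:**
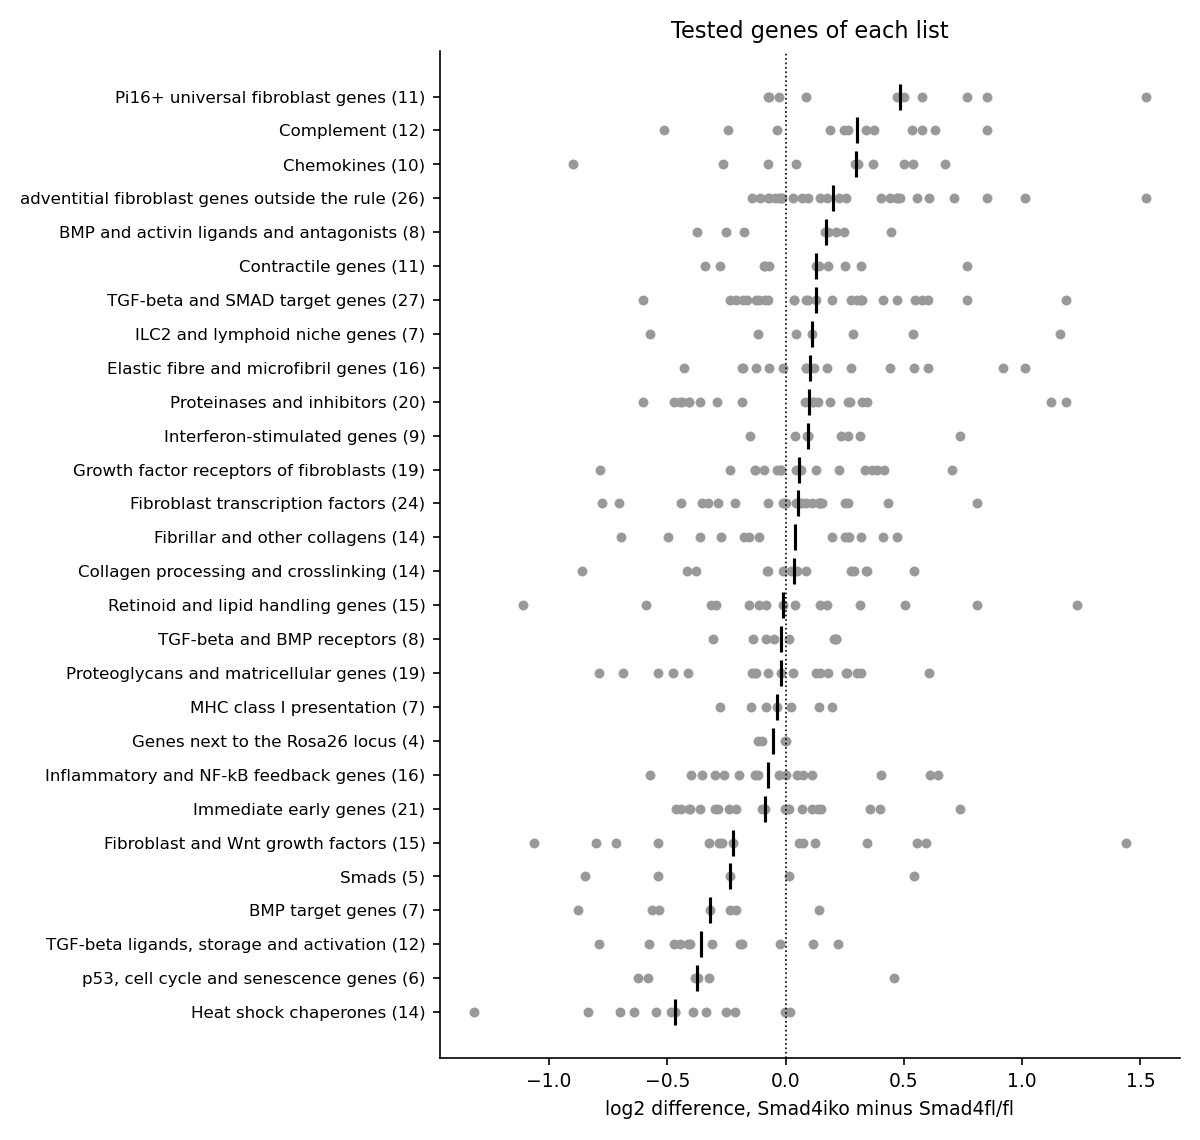
Log2 differences, Smad4iko minus Smad4fl/fl, of the tested genes of each list with at least 4 of them (grey points, number in parentheses), with the list's median as a black bar and the median of all genes as a dotted line. Medians lie between -0.47 for heat shock chaperones and 0.48 for Pi16+ universal fibroblast genes, and no gene shown passed adjustment.

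Of adventitial identity genes outside the rule, 18 of 26 were positive, with a median of 0.20, and 16 of 26 with a median of 0.11 without Smad4fl/fl 1. Ly6a averaged 972 ± 300 CPM (SD, n = 4) in Smad4iko and 586 ± 168 CPM (SD, n = 3) in Smad4fl/fl fibroblasts with overlap (log2 difference 0.71 ± 0.27). It was 0.38 in members with a Pi16 UMI. Aebp1, a collagen-binding protein, averaged 1103 ± 164 CPM (SD, n = 4) in Smad4iko and 799 ± 93.0 CPM (SD, n = 3) in Smad4fl/fl fibroblasts without overlap (log2 difference 0.47 ± 0.20). The 11 tested genes of Pi16+ universal fibroblasts had a median of 0.48, 0.24 without Smad4iko 3 and 4 and 0.39 without Smad4fl/fl 1. Complement genes had 9 of 12 positive with a median of 0.30, the C1ra and C1s1 values above among them, and C3 averaged 2425 CPM in Smad4iko and 1888 CPM in Smad4fl/fl fibroblasts with overlap.

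Of fibroblast and Wnt growth factors 7 of 15 tested genes were positive, with a median of -0.22, and -0.042 without Smad4fl/fl 1. Sfrp4, a secreted Wnt modulator, averaged 94.4 ± 47.5 CPM (SD, n = 4) in Smad4iko and 32.2 ± 20.8 CPM (SD, n = 3) in Smad4fl/fl fibroblasts, a log2 difference of 1.44 ± 0.52, and 0.86 without Smad4iko 3 and 4. Kitl, the ligand of the KIT receptor, differed by -1.06 ± 0.45 and Dkk3 by -0.80 ± 0.33. Retinoid and lipid handling genes had 7 of 15 positive, 5 of 15 without Smad4fl/fl 1, and Aldh1a3, which makes retinoic acid, had 55.5, 114, 98.1 and 153 CPM in Smad4iko 1 to 4, against 33.8, 23.8 and 67.2 CPM in Smad4fl/fl 1 to 3 with overlap (log2 difference 1.23 ± 0.42). Of 24 fibroblast transcription factors 14 were positive with a median of 0.052, but 7 of 24 with a median of -0.063 without Smad4fl/fl 1. Tbx4, a regulator of lung mesenchyme, differed by -0.77 ± 0.31. All of these had an edgeR adjusted p of 1.00.

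The counts of stress genes depended on Smad4iko 3 and 4 and on Smad4fl/fl 1. Heat shock chaperones were negative in 13 of 14 with a median of -0.47, but in 8 of 14 with a median of -0.11 without Smad4iko 3 and 4, and in 10 of 14 with a median of -0.15 without Smad4fl/fl 1. Hsp90aa1 had 1549, 2240, 608 and 511 CPM in Smad4iko 1 to 4, against 2573, 929 and 1686 CPM in Smad4fl/fl 1 to 3, lowest in Smad4iko 3 and 4. Of 21 immediate early genes, which dissociation is known to induce, 12 were negative with all libraries, 1 of 22 without Smad4iko 3 and 4 and 7 of 21 without Smad4fl/fl 1. Interferon-stimulated genes were positive in 8 of 9 with a median of 0.093, and Ifitm3 was the one without overlap, against 3.96% of all genes tested. They were positive in 14 of 16 with a median of 0.51 without Smad4iko 3 and 4, and in 6 of 10 with a median of 0.063 without Smad4fl/fl 1. Of 7 genes of MHC class II none reached the filter on low counts.

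The summed level of 4 neutrophil markers in these fibroblasts was higher in every Smad4iko library than in any Smad4fl/fl library, but not every marker was. The 4 neutrophil markers summed to 138, 422, 236 and 79.5 CPM in Smad4iko 1 to 4, against 11.8, 23.8 and 70.9 CPM in Smad4fl/fl 1 to 3. S100a8 and Retnlg did not overlap. S100a9 overlapped, with 51.1 CPM in Smad4iko 4 and 52.2 CPM in Smad4fl/fl 3, and Csf3r had 0 UMIs in Smad4iko and 2 in Smad4fl/fl fibroblasts. S100a8, a calgranulin of neutrophils, gave 97 UMIs in Smad4iko and 8 in Smad4fl/fl fibroblasts, at a log2 difference of 3.16 ± 0.69 with an unadjusted p of 0.000847 (edgeR adjusted p = 1.00). In leukocytes of the same libraries S100a8 averaged 8506 ± 5289 CPM (SD, n = 4) in Smad4iko and 1487 ± 1056 CPM (SD, n = 3) in Smad4fl/fl mice. Leukocyte markers summed to 34.4 to 78.5 CPM in Smad4iko and 29.8 to 38.9 CPM in Smad4fl/fl fibroblasts, with Ptprc at 0 by the rule, and the part of such RNA in the other differences was not tested. A single member in Smad4fl/fl 1 held all 200 UMIs of Schwann cell genes of that library, one in Smad4iko 1 held 38 UMIs of cardiac genes and one in Smad4iko 4 held 2201 of globin genes. Without these 3 cells the edgeR test still called 0 genes, with 107 at an unadjusted p under 0.05.

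Whether the genotype effect in these fibroblasts differed from that in endothelial cells was tested within each library, on the difference of log2 CPM between the cell types. Endothelial cells, 3856 in all, were used because only 1 library of each genotype held 10 cells of both fibroblast populations. Of 3987 genes 1 passed (limma, 0.0251%), with 118 at an unadjusted p under 0.05. The gene was Hebp1, which encodes a heme-binding protein and lies at chr6:135137522-135198022, within 25 Mb of Rosa26. In fibroblasts it had 42.1, 40.6, 29.4 and 39.8 CPM in Smad4iko 1 to 4, against 33.8, 47.7 and 44.8 CPM in Smad4fl/fl 1 to 3, with overlap (log2 difference -0.0016). In endothelial cells it averaged 8.31 ± 2.32 CPM (SD, n = 4) in Smad4iko and 91.3 ± 32.8 CPM (SD, n = 3) in Smad4fl/fl mice (log2 difference -3.47, edgeR adjusted p = 0.00853). The difference between the 2 effects was 3.24 (limma adjusted p = 0.00359), in a gene with 47 UMIs in Smad4iko and 38 in Smad4fl/fl fibroblasts. With limma it passed without Smad4iko 3 or 4 but not without Smad4fl/fl 2 (adjusted p = 0.0589) or 3 (adjusted p = 0.0907), and Hebp1 was not among the genes tested without Smad4fl/fl 1, Smad4iko 1 or Smad4iko 2. The endothelial comparison was chosen after the data were seen. For Hebp1, too, loss of Smad4 and the creERT2 allele with the chromosome around it cannot be told apart.

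For Smad4 no difference between the cell types was detectable, with a log2 difference of -0.34 ± 0.11 in endothelial cells and -0.48 for the fibroblast minus the endothelial effect (limma adjusted p = 0.987). Il33 was at 4.71 CPM in endothelial and 1.11 CPM in leukocyte populations of all libraries pooled. Its fibroblast minus endothelial effect of 2.50 did not pass (limma adjusted p = 0.987). C1rb had a difference of 0.076 between the effects (limma adjusted p = 0.995), and it was at 0 in Smad4iko cells of both types.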

How the data were processed

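Single-cell 3′ RNA libraries of 4 Smad4iko and 3 Smad4fl/fl mouse lungs were used, 1 per mouse. The deposited matrices hold raw UMI counts per gene and barcode, made with Cell Ranger 6.1.1 per the file headers. The submitters' processing notes also name fastp, UMI-tools and mm10, with no role given. Barcodes with at least 600 UMIs, at least 300 genes and at most 20% mitochondrial UMIs were kept. The members and gene lists were chosen with earlier results of these data known. Scrublet (scanpy 1.11.5, Python 3.11.15) marked doublets, which were left out in an alternative only.

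Member counts were summed per library and tested with edgeR 4.0.16 (R 4.3.3; quasi-likelihood test, TMM, filterByExpr, Smad4iko minus Smad4fl/fl), with Benjamini-Hochberg adjustment over 3987 genes at 0.05. SE is the log2 difference divided by the root of the F statistic. DESeq2 1.42.0 and limma 3.58.1 (prior count 2) served as stated. The scripts were tested on simulated data. Genes named were Smad4, up to 12 per direction by p whose average log2 CPM reached 5, with no overlap between genotypes and at least 10% of the level of the highest other population, and the 4 list members with the highest mean CPM. Tslp, C1ra, C1s1, C1s2, Pianp, Hebp1, S100a8, Ltbp3, Tgfb3, Fbn1, Mmp3, Acta2, Ly6a, Aebp1, Sfrp4, Kitl, Dkk3, Aldh1a3 and Tbx4, and the genes set beside Pi16, were chosen after their values were seen. The main fit was not blocked by sample number, and whether equal numbers pair the mice was not settled. A block by number was run as an alternative. Intervals and floors cover counting error only. The planned comparison with alveolar fibroblasts was replaced by endothelial cells. Some genes that these rules take are not reported here.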

Additional observations from a re-analysis of the deposited data

Results flagged for a closer look

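In 126 gene and genotype groups of 4 Smad4iko libraries, 2 held a library far from the other 3, and chance flags about 1 in 20 such groups. Timp3, an inhibitor of metalloproteinases, was at 5154 CPM in Smad4iko 2, against 3623 to 3827 CPM in the other Smad4iko libraries. H2-D1, a classical MHC class I gene, was at 530 CPM in Smad4iko 1, against 386 to 406 CPM in the other Smad4iko libraries. The genotype effect on Hebp1 differed between cell types, by 3.24 on the log2 scale for adventitial fibroblasts minus endothelial cells (limma adjusted p = 0.00359). Hebp1 lies within 25 Mb of Rosa26, so loss of Smad4 and the creERT2 allele cannot be told apart.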

How the results depend on the processing

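The number of genes called was 0 in the fibroblasts and went to 2 with DESeq2, to 16 with all 14842 genes that had at least 1 UMI, and to 1 (C1rb) in members with 0 or 1 Hhip UMIs. With the replicate block it was 1 (C1rb, edgeR adjusted p = 0.0108). Correlations of same-numbered mice were 0.41, -0.22 and 0.07. The best-correlated Smad4iko library had the same number for Smad4fl/fl 1 and 3, but was Smad4iko 4 for Smad4fl/fl 2. Whether the numbers pair the mice is thus not settled by these values. Leaving out each library in turn gave 0 to 1 gene, the 1 being C1rb without Smad4fl/fl 1. The difference in share ran from -0.276 to 0.131 with single libraries left out and reversed to 0.131 without Smad4fl/fl 1, to 0.0349 without Smad4iko 3, and to 0.0617 as a share of Ptprc-negative cells. The count of genes whose effect differed from endothelial cells was 0 to 1 with single libraries left out, being 0 without Smad4fl/fl 1, 2 or 3 or Smad4iko 1 or 2, and 0 with the replicate block (Hebp1 limma adjusted p = 0.0599). The causes were not tested. The planned test against alveolar fibroblasts was not run, because 1 library of each genotype held 10 cells of both. Of 435 values for the 24 genes taken by the rule, 428 kept direction and side of the threshold, 7 passed it and 0 reversed. Their signs were largely fixed by the choice of genes without overlap. The 16 members of Smad4iko 3 and 19 of Smad4fl/fl 2 limit the precision of low genes.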
